A study of Mus musculus with 21 samples.

Results

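Macroautophagy is the process by which a cell wraps protein aggregates and worn organelles in a double membrane, the autophagosome, and delivers them to the lysosome for digestion. The ULK1 kinase complex starts the process and a lipid kinase complex marks the membrane. Conjugation enzymes then couple Atg8 proteins to it, cargo receptors tether what is to be digested, and fusion proteins join the autophagosome to the lysosome. AMPK, the energy sensor that adiponectin receptor signaling is thought to engage, is an established activator of ULK1, and neurons depend on autophagy to clear aggregation-prone proteins such as tau. The transcripts of this machinery are described here as 49 genes, chosen by symbol and sorted into 8 steps. All 49 were present in each of the 4 tables of RNA sequencing results, which share 19399 genes.

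The RNA came from 21 cultures of primary cortical neurons from newborn mouse pups. Tau neurons carried the mutant human tau transgene hTau P301S, driven by the prion promoter, received pre-formed tau fibrils on day 7 and grew for another 18 days, while WT neurons carried no transgene. Each genotype received AdipoRon, a small-molecule agonist of the adiponectin receptors, at 10 μM in the sample tags (one protocol text gives the unit as mM), or its vehicle DMSO for 24 h. Tau neurons contributed 5 cultures to each treatment, WT neurons contributed 5 to DMSO and 6 to AdipoRon, and all were grown with cytosine arabinoside to limit glia. The methods describe seeding for the transgenic cultures only, while the paper's results date the RNA of both genotypes from seeding. Whether the WT cultures received fibrils is therefore not settled. If they did not, the transgene and the fibrils cannot be told apart. According to the reporting summary, cells of the same animal went into each treatment, so the DMSO and AdipoRon cultures may not be from separate animals. That statement is not specific to the RNA cultures, and the paper exempts the RNA sequencing from its rule of repeated sessions with littermates. With 5 WT cultures on DMSO and 6 on AdipoRon, not every WT culture can have had a counterpart of its own.

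The values used are the mean levels that the authors give for each gene, as log2 CPM, where CPM is the number of reads of a gene scaled to the size of its library. Each mean was taken over 2 groups of cultures at once: all 10 DMSO cultures, all 11 AdipoRon cultures, all 10 Tau cultures or all 11 WT cultures. The difference between the AdipoRon mean and the DMSO mean is therefore an average over both genotypes, and the difference between the Tau mean and the WT mean is an average over both treatments. No value of a single culture was used, so no spread between replicates, standard error, depth or p-value can be attached to any difference below, and none was tested. The response of one genotype alone cannot be read from these means. Means were set side by side across tables that may have been normalized separately. The DMSO and AdipoRon means, combined by numbers of cultures, matched the combined Tau and WT means with an SD of 0.0049 (log2) over all genes and to within 0.0086 for every autophagy gene. This match bears only on how the means pair up. A swap of the 2 means within a pair would hardly alter it. Which mean is DMSO or AdipoRon, and which is Tau or WT, therefore rests on the names given by the authors. Nor can the match show that the DMSO and AdipoRon means share a scale, because opposite shifts in them could cancel. The same holds for the Tau and WT means.

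The label of the cells was checked against marker genes. Neuronal markers were abundant, with the 6 of them summing to 3433 CPM in the DMSO and 3030 CPM in the AdipoRon cultures. Astrocyte markers were as high, the 4 of them summing to 3333 and 3661 CPM in the same order, with Gfap at a mean log2 CPM of 10.87. Oligodendrocyte lineage markers (4 genes) summed to 446 CPM in the Tau and 725 CPM in the WT cultures. The 4 microglia markers summed to 46.3 CPM in the Tau and 90.5 CPM in the WT cultures. The cultures thus held transcripts of glia beside those of neurons, and fewer cells of a type cannot be told apart from less RNA per cell. Of the vascular markers, Cldn5 was not in all tables, Pecam1 had a mean log2 CPM below zero and Col1a1 had 3.91, with a mean higher by 0.34 (log2) in the Tau cultures.

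Autophagy genes were well covered by reads in these cultures. Their median rank was at percentile 78.9 of all genes by log2 CPM, from 40.5 for Atg4a to 99.3 for Sqstm1, and 30 of the 49 lay above percentile 75. Only Atg4a, Atg10 and Vamp8 had a mean log2 CPM under 4. To compare genes, the mean over the 4 tables was divided by the length of the canonical transcript in kilobases (kb). On this scale the levels spanned from 2.58 CPM per kb for Atg4a to 209 CPM per kb for Gabarapl1, with a median of 16.3, against 6.27 for all genes. The 5 Atg8 genes held 43.3% of the summed CPM per kb of all 49 genes in the DMSO cultures, and the 6 cargo receptors and adaptors held 19.6%.

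**Figure D1:**
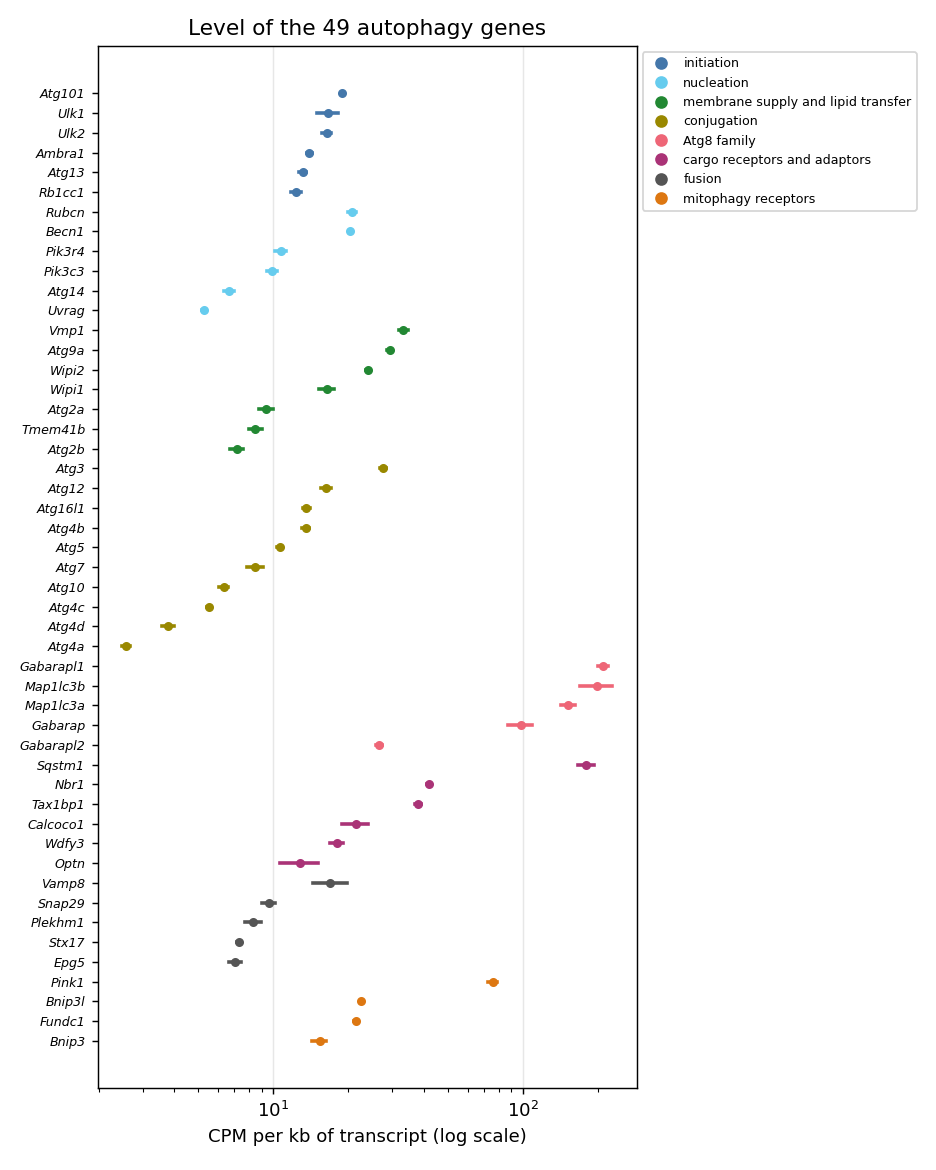
Level of each of the 49 genes in CPM per kb of transcript on a log axis, grouped by step. Points are the mean over the 4 tables and lines run from the lowest to the highest table. The Atg8 genes Gabarapl1, Map1lc3b and Map1lc3a and the receptor gene Sqstm1 lie furthest right, and Atg4a, at 2.58 CPM per kb, furthest left.

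With AdipoRon, 37 of the 49 genes had a higher mean than with DMSO and 12 a lower one, where 55.5% of all genes were higher. Their median difference was 0.10 on the log2 CPM scale, against 0.03 for all genes. The difference was within 0.1 of zero for 21 of the 49. A limit of 0.25 (a 1.19-fold difference), set after the values had been seen, was passed by 6 genes in the direction of AdipoRon: Optn, Vamp8, Map1lc3b, Calcoco1, Gabarap and Ulk1. This is no larger a share than the background, since 16.1% of all genes were higher by as much. None of the 49 was lower by 0.25, while 14.6% of all genes were. Of the genes with a mean log2 CPM of at least 4, 9.89% were lower by as much. Among genes with a mean log2 CPM of at least 4, 5 of 46 autophagy genes were higher by 0.25, beside 12.5% of the 9710 such genes, and 34 of 46 lay above zero, beside 58.0%. Summed over all 49 genes, CPM per kb was 1531 in the DMSO and 1629 in the AdipoRon cultures, a difference of 6.42%.

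**Figure D2:**
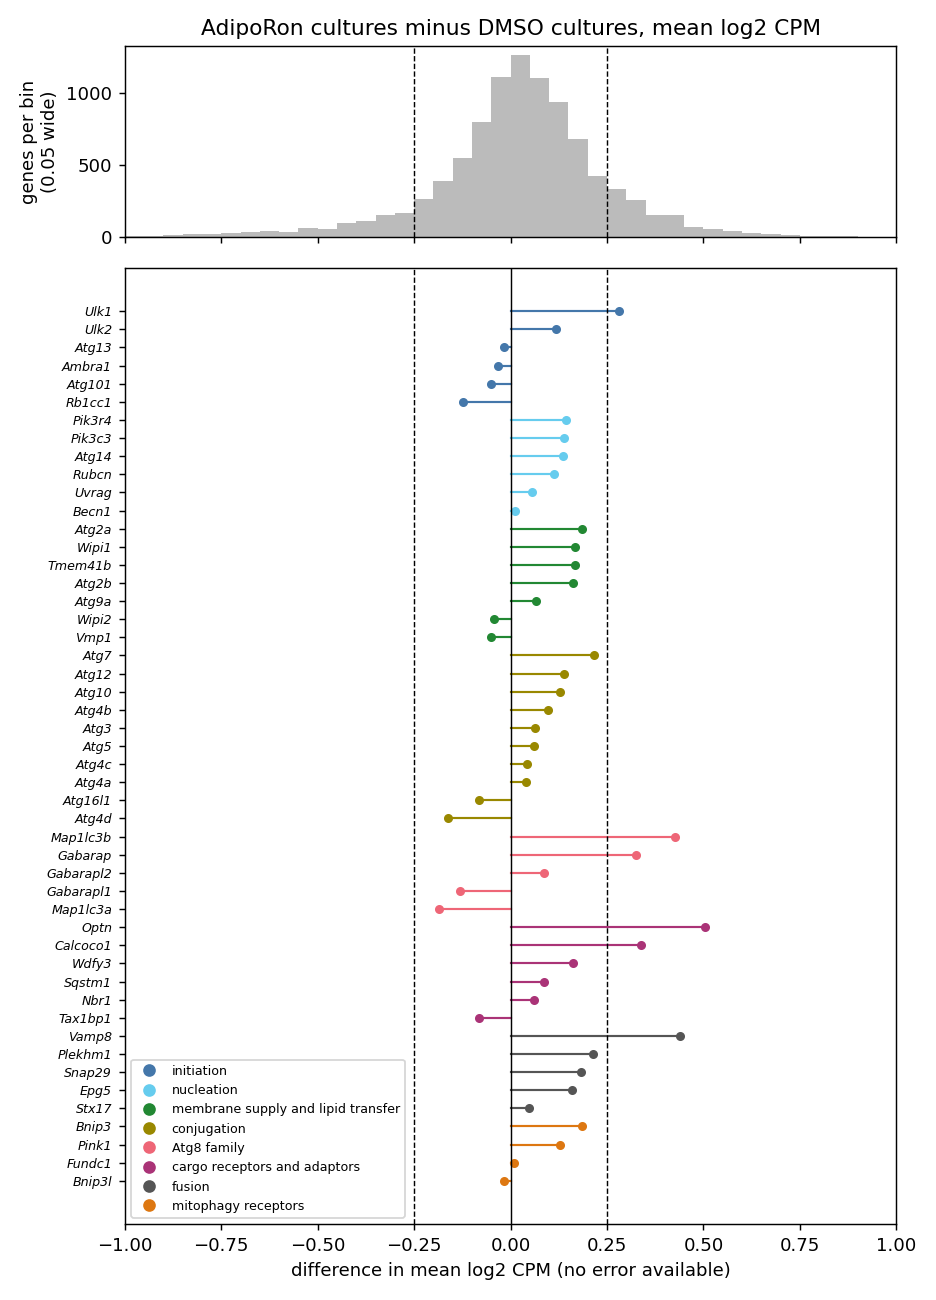
Difference in mean log2 CPM between the AdipoRon and the DMSO cultures for each of the 49 genes (lower panel, points by step) and for all genes with a mean log2 CPM of at least 4 (upper panel, number of genes per bin, with the axis ending at 1 in each direction). Dashed lines mark 0.25 in either direction. Optn, Vamp8, Map1lc3b, Calcoco1, Gabarap and Ulk1 lie past the right line and no gene lies past the left one.

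Between genotypes the autophagy genes lay close to zero. The Tau mean was above the WT mean for 25 genes and below it for 24, where 49.7% of all genes were above. The median difference was 0.00 (log2), with 43 of 49 genes within 0.1 of zero. No autophagy gene was higher in the Tau cultures by 0.25, a size reached by 11.2% of all genes. Vamp8 alone was lower by 0.25, beside 9.02% of all genes. Among the genes with a mean log2 CPM of at least 4, to which 46 of the 49 but not Vamp8 belong, 1.32% were higher and 4.29% lower in the Tau cultures by this size, against 0 of the 46 either way.

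At the step of initiation, the kinase gene Ulk1 had a mean log2 CPM of 6.51 in the DMSO and 6.79 in the AdipoRon cultures, a difference of 0.28 or 21.4%. The Tau and WT means of Ulk1 were 6.69 and 6.64. Its relative Ulk2, which can stand in for ULK1, had 6.71 with DMSO and 6.82 with AdipoRon. These kinases thus had the higher means with AdipoRon, and the ratio of Ulk1 to Ulk2 per kb was 0.954 in the DMSO and 1.07 in the AdipoRon cultures. The genes of their partners did not share this direction. Rb1cc1, which encodes the scaffold FIP200, had a log2 difference of -0.12, Atg101 of -0.05 and Atg13 of -0.02. Ambra1, which links the complex to Beclin 1, had -0.03. Initiation was the only one of the 8 steps with a median difference below zero, at -0.02. In it 2 of 6 genes were higher, where 55.5% of all genes were. Levels were even within the step, from 12.4 CPM per kb for Rb1cc1 to 18.9 for Atg101.

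At nucleation, 6 of 6 genes of the phosphatidylinositol 3-kinase complex were higher with AdipoRon, where 55.5% of all genes were. The margins were small, with a median log2 difference of 0.12. Pik3c3, the catalytic subunit VPS34, had 5.39 with DMSO and 5.53 with AdipoRon on the log2 CPM scale. Pik3r4, its regulatory subunit, had 5.65 and 5.79. Becn1, the Beclin 1 scaffold, was the flattest of these genes, with log2 CPM means of 6.47 in the DMSO, 6.48 in the AdipoRon, 6.48 in the Tau and 6.48 in the WT cultures. Atg14 directs the complex to autophagosome formation and Uvrag to endosomes, and their log2 differences with AdipoRon were 0.14 and 0.06. Rubcn encodes Rubicon, an inhibitor of the complex, and had the highest level of the step at 20.7 CPM per kb and a log2 difference of 0.11. Uvrag had the lowest, at 5.29 CPM per kb. Between genotypes these genes differed by -0.03 to 0.05 (log2).

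The lipid transfer proteins that supply the growing membrane are encoded by Atg2a and Atg2b, which had log2 differences of 0.19 and 0.16 with AdipoRon. Tmem41b, a lipid scramblase of the endoplasmic reticulum, had 0.17. Vmp1, its functional partner, had -0.05, with 6.84 in the DMSO and 6.79 in the AdipoRon cultures. Vmp1 was also the highest gene of the step, at 33.2 CPM per kb, and Atg2b the lowest, at 7.16. Atg9a, the transmembrane scramblase of the vesicles that seed autophagosomes, had 7.02 with DMSO and 7.09 with AdipoRon (log2 CPM). Wipi1 and Wipi2, which encode proteins that bind the marked membrane, had log2 differences of 0.17 and -0.04. Wipi1 was also lower in the Tau than in the WT cultures, at 4.99 against 5.19 (log2 CPM), a difference of -0.20 or -13.0%. All 4 microglia markers and all 4 oligodendrocyte lineage markers had the lower mean in the Tau cultures too. Their part in the difference of Wipi1 was not tested.

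Conjugation was among the steps of low transcript levels, with a median of 9.54 CPM per kb, beside 8.33 for fusion. It held the 2 lowest of the 49 genes per kb, Atg4a and Atg4d. Of its 10 genes, 8 had a higher mean with AdipoRon, where 55.5% of all genes did, and the median log2 difference was 0.06. Atg7, the E1-like enzyme that activates both ubiquitin-like proteins of the pathway, had the highest difference, with 4.88 in the DMSO and 5.10 in the AdipoRon cultures (log2 CPM). Atg7 had 4.94 in the Tau and 5.05 in the WT cultures. Atg3 and Atg10, the E2-like enzymes, had log2 differences with AdipoRon of 0.06 and 0.13. The conjugate that attaches Atg8 proteins is built from Atg12, Atg5 and Atg16l1. Their log2 differences were 0.14, 0.06 and -0.08, so these subunits did not share a direction. Atg5 had log2 CPM means of 4.63 with DMSO and 4.69 with AdipoRon, and of 4.65 and 4.67 in the Tau and WT cultures. Among the proteases that process Atg8 proteins, Atg4b had 5.10 times the level of Atg4a per kb in the DMSO cultures. Atg4d was lower with AdipoRon, at 4.44 against 4.60 (log2 CPM), while Atg4a, Atg4b and Atg4c had differences of 0.04 to 0.10.

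The Atg8 proteins, LC3 and GABARAP, coat the autophagosome, and LC3B is the usual marker of it. Their genes did not share a direction with treatment. Map1lc3b had log2 CPM means of 7.23 with DMSO and 7.66 with AdipoRon, a difference of 0.43 or 34.3%, and of 7.50 and 7.44 in the Tau and WT cultures. Map1lc3a had 7.06 with DMSO and 6.87 with AdipoRon, the most negative difference of the 49 genes at -0.19. The ratio of Map1lc3b to Map1lc3a per kb was accordingly 1.05 in the DMSO and 1.60 in the AdipoRon cultures, and 1.33 and 1.30 in the Tau and WT cultures. The GABARAP genes differed in opposite directions too. Gabarap had 7.26 with DMSO and 7.59 with AdipoRon (log2 CPM), and Gabarapl1, the highest of the 49 genes per kb, had 8.64 and 8.50. The ratio of Gabarap to Gabarapl1 per kb was 0.398 in the DMSO and 0.547 in the AdipoRon cultures. Gabarapl2 had a log2 difference of 0.09. Summed over the family, CPM per kb was 662 with DMSO and 705 with AdipoRon. Of the 6 neuronal markers, 5 had the lower mean with AdipoRon and 1 the higher, with a median of -0.18 (log2). Their part in the differences of Map1lc3a and Gabarapl1, and in the 2 ratios, was not tested. Atg8 genes are related in sequence, and how reads shared between relatives were assigned was not examined.

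Among cargo receptors and adaptors, Optn, which encodes optineurin, a receptor for ubiquitin-tagged mitochondria and aggregates, had the highest AdipoRon difference of the 49 genes. Its log2 CPM means were 4.84 with DMSO and 5.35 with AdipoRon, a difference of 0.50 or 41.9%, and its Tau and WT means were 5.08 and 5.17. Calcoco1, a receptor for portions of the endoplasmic reticulum and Golgi, had 6.12 and 6.46 with DMSO and AdipoRon, and 6.31 in both the Tau and the WT cultures. Sqstm1, which encodes p62, had 9.14 with DMSO and 9.23 with AdipoRon, and by log2 CPM more reads than any other autophagy gene. Sqstm1 instead had the highest genotype difference of the 49 genes, with 9.29 in the Tau and 9.08 in the WT cultures, a difference of 0.21 or 15.6%. All 6 neuronal markers had the higher mean in the Tau cultures as well, by 0.07 to 0.33 (log2), and their part in the difference of Sqstm1 was not tested. Nbr1, a receptor related to p62, had log2 differences of 0.06 with AdipoRon and 0.01 between genotypes. Tax1bp1, another ubiquitin-binding receptor, had -0.08 and 0.05. Wdfy3, which encodes the large adaptor ALFY for aggregates, had 7.92 with DMSO and 8.08 with AdipoRon. Of the 6 genes, 5 were higher with AdipoRon, where 55.5% of all genes were, with a median log2 difference of 0.12. Astrocyte markers differed with treatment as well, Gfap and Aldh1l1 being higher with AdipoRon by 0.34 and 0.42 and Aqp4 and Slc1a3 lower by 0.23 and 0.24 (log2). The part of glia in the differences of Optn and Calcoco1 was not tested.

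Fusion with the lysosome was the step with the highest median difference, 0.18 (log2). Here 5 of 5 genes were higher with AdipoRon, where 55.5% of all genes were. Vamp8, a SNARE protein of late endosomes and lysosomes, had log2 CPM means of 3.57 with DMSO and 4.01 with AdipoRon, a difference of 0.44 or 35.6%. It was lower in the Tau than in the WT cultures, at 3.58 against 3.99, a difference of -0.41. The AdipoRon and WT means both include the WT cultures with AdipoRon, so these differences of Vamp8 are not separate observations. Whether they come from that group alone cannot be read from the pooled means. The other SNAREs differed less, with Snap29 at 4.95 and 5.14 and Stx17 at 5.38 and 5.42 with DMSO and AdipoRon. Plekhm1, an adaptor between LC3, Rab7 and the tethering complex HOPS, had 5.54 and 5.75. Epg5, a tether of autophagosomes to lysosomes, had 6.01 and 6.17. Between genotypes, 4 of the 5 genes had the lower mean in the Tau cultures, with a median of -0.03. Of all genes, 49.7% had the higher mean in the Tau cultures. The genotype difference of Vamp8 stood beside lower means of all 4 microglia markers (-1.41 to -0.42, log2) and of all 4 oligodendrocyte lineage markers (-1.64 to -0.45) in the Tau cultures, and their part in it was not tested. With AdipoRon, 3 of the 4 microglia markers had the lower mean and Aif1 the higher (0.21). They summed to 76.2 CPM with DMSO and 63.9 CPM with AdipoRon. The part of glia in the AdipoRon difference of Vamp8 was not tested.

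Mitophagy is the removal of mitochondria by autophagy. Pink1, the kinase that marks damaged mitochondria, was the highest of the mitophagy genes at 75.8 CPM per kb, with log2 CPM means of 8.09 with DMSO, 8.21 with AdipoRon, 8.16 in the Tau and 8.15 in the WT cultures. Of the receptors on the mitochondrial membrane, Bnip3 had 5.71 with DMSO and 5.90 with AdipoRon, a difference of 0.19. Bnip3l, its close relative NIX, had 6.20 and 6.18, and Fundc1 had 5.41 and 5.42. Between genotypes the 4 genes differed by -0.04 to 0.04 (log2).

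**Figure D3:**
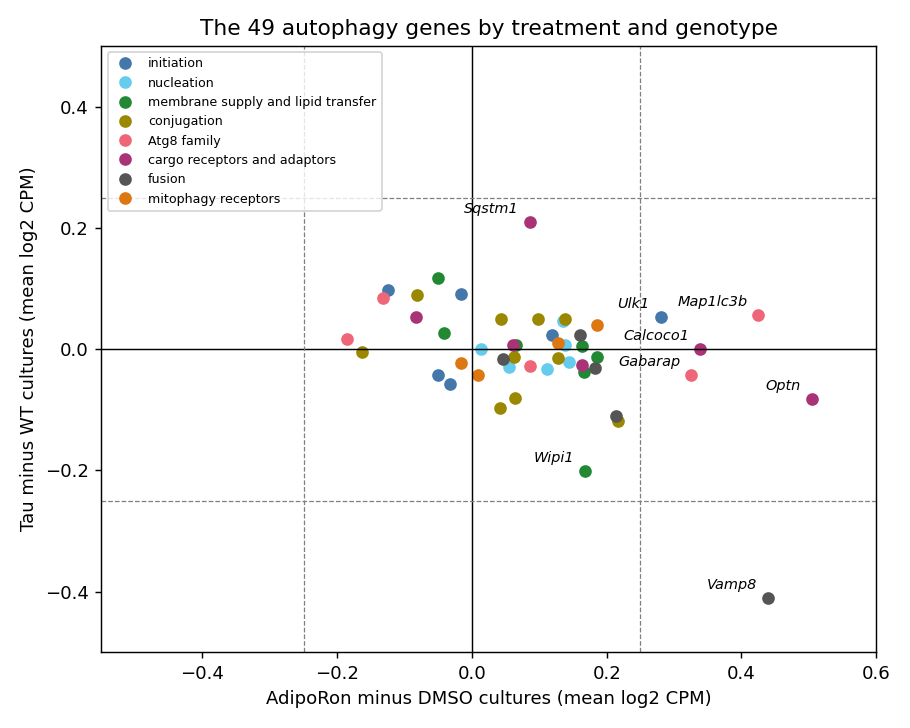
Difference in mean log2 CPM between AdipoRon and DMSO cultures (horizontal) and between Tau and WT cultures (vertical) for the 49 genes, coloured by step, with dashed lines at 0.25 in either direction. Both axes come from the same 21 cultures. The points spread along the horizontal axis, from -0.19 for Map1lc3a to 0.50 for Optn, and Vamp8 alone lies past a horizontal dashed line.

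Other genes of the pathway were looked at as 2 further lists. Of 14 upstream regulators, 11 had the higher mean with AdipoRon, where 55.5% of all genes did, with a median log2 difference of 0.14. Prkab2, a beta subunit of AMPK, was the highest of these at 0.68, while Prkaa2, a catalytic subunit, had -0.26 and Prkaa1, the other catalytic subunit, -0.01. Tfeb, the transcription factor best known for switching on lysosome and autophagy genes, had 0.22 with AdipoRon and -0.27 between Tau and WT cultures, and its relative Tfe3 had -0.17 and -0.05. Tfeb, at a mean log2 CPM of 4.03, was the 1 regulator of 14 lower in the Tau cultures by 0.25. Beside it stood 9.02% of all genes and 4.29% of those with a mean log2 CPM of at least 4. The part of glia in the genotype difference of Tfeb was not tested. Mtor, the kinase that restrains ULK1, had 0.15 with AdipoRon. Of 23 further autophagy genes, 20 were higher with AdipoRon, with a median of 0.15. The background was 55.5% of all genes and 58.0% of those with a mean log2 CPM of at least 4. By 0.25, 5 were higher, beside 16.1% and 12.5% in the same order. The HOPS tethering complex, which acts at fusion, was among these 23 genes, with log2 differences of 0.47 for Vps39, 0.40 for Vps33a, 0.32 for Vps18, 0.19 for Vps11, 0.19 for Vps16 and 0.07 for Vps41. Tecpr1, a further fusion gene, had 0.37. Rab7, the small GTPase of late endosomes, had 0.01 at 122 CPM per kb.

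The letters CACGTG are the core of the element that TFEB and its relatives bind, and were searched for in RefSeq promoters (build GRCm38.p6, from 250 bases before to 50 after each start). Since the sequence equals its own reverse complement, this covers both strands. Promoters were found for 40 of the 49 genes, and 6 of the 40 (15.0%) held the letters, beside 8.91% of protein-coding genes. The 7 matches are shown because 4 of them lie at the conjugation enzymes, with 10 bases on each side and CACGTG in capitals, in the direction of transcription.
Atg3, chr16:45158725-45158750, + strand: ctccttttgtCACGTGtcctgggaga
Atg3, chr16:45158748-45158773, + strand: agagtcgagtCACGTGaggccttagg
Atg5, chr10:44268315-44268340, + strand: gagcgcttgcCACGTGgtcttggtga
Atg7, chr6:114670954-114670979, + strand: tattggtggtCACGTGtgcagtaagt
Atg14, chr14:47568420-47568445, - strand: aacaaaatccCACGTGactggccctg
Rubcn, chr16:32868439-32868464, - strand: cctagcacatCACGTGtacccaggtt
Bnip3, chr7:138909599-138909624, - strand: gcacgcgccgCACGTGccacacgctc
They began between 1 base (Atg14) and 132 bases (Atg7) before the start. The AdipoRon differences of these 6 genes ran from 0.06 for Atg5 to 0.22 for Atg7 (log2). The 6 genes past the limit of 0.25 with AdipoRon were all among the 40 searched, and none had the letters in this window. A match of letters is not a binding site, and no binding was measured.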

How the data were processed

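RNA of 21 cultures in 4 groups, assigned by title, had been sequenced by the authors. Per the methods and labels, the authors trimmed reads, mapped them to mm10 (STAR), estimated gene levels by RSEM and compared groups in edgeR. GRCm39 appears in the paper's results and Rsubread in the tables' names, and versions, library normalization and gene filter are not given in the sources used here. Mean levels are the authors' log2 CPM, edgeR's average over the cultures of each table. The remaining deposited columns hold the authors' own fold changes, likelihood ratios, p-values, false discovery rates and calls, and were not used. Which cultures each table pools was taken from its name, because the sample descriptions list the DMSO table for WT cultures with AdipoRon as well. With the pairing used, combined means matched with an SD of 0.0049, against 0.246 and 0.183 for the other 2 pairings of tables. A swap of the 2 tables within a pair would hardly change this match. The sign of every difference therefore rests on the names alone.

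Differences were taken between tables over the 19399 genes in all 4 (Python 3.11.15, pandas 2.3.3), and their arithmetic was checked on simulated group means. These had no noise, a common scale, and for each altered gene either a treatment or a genotype effect. The check therefore cannot speak to separate normalization of the tables or to a response that differs by genotype. Because 6 of 11 AdipoRon cultures but 5 of 10 DMSO cultures were WT, a genotype difference enters the treatment difference with a weight of -0.0455. Lengths are those of GENCODE vM39 canonical transcripts (all 49 genes), which belong to another build than mm10. CPM per kb is approximate, because it takes 1 transcript per gene. Depth per culture is unknown, and no interval was computed.

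Members, lists and steps were chosen with earlier results of these data known. The planned tests of count models were not run because they need values per culture. Named were the highest and lowest gene of each step, Ulk1, Becn1, Atg5, Atg7, Map1lc3a, Map1lc3b, Sqstm1 and Pink1. Other genes were named after their values had been seen.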

Additional observations from a re-analysis of the deposited data

How the results depend on the processing

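No paired analysis was possible because the tables hold no values of single cultures, although the treatments may have shared animals. For the same reason leaving out a replicate, other normalizations, low-value filters, other adjusted p thresholds and a restriction of the tested genes could not be run. Taking the mean instead of the median over the genes of a step put the log2 CPM (not per length) of initiation at 6.21 (median 6.45), of cargo receptors and adaptors at 7.29 (7.55), of fusion at 5.20 (5.40) and of mitophagy receptors at 6.39 (6.00). These 4 shifts exceeded the range of the step's median over the tables. The median rank was at percentile 77.5 among genes in all tables and 78.3 among those with an Entrez number. The following were chosen after seeing the data. The 6 genes higher with AdipoRon became 8 at a limit of 0.2, 5 at 0.3 and 1 at 0.5 (Optn), and stayed 6 in number with the median of all genes subtracted. The genes lower with AdipoRon numbered 0 at each limit. In the Tau cultures, 1 gene was higher at 0.2 (Sqstm1) and 0 at 0.25, and 2 were lower at 0.2 (Vamp8 and Wipi1), 1 at 0.25 and 0 at 0.5. The median AdipoRon difference was 0.07 with the median of all genes subtracted and 0.10 with groups given equal weight. Ulk1 (0.28) lay just inside the limit of 0.25 and Atg7 (0.22) just outside it.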
